A study of Mus musculus with 8 samples.

Results

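This report describes the aortas of mice taken 2 weeks after the end of an angiotensin II infusion (AngII+2W) against those of untreated mice (CTRL), across all genes, and asks what remained of the difference seen at the end of the infusion. The comparison uses 4 of the 8 RNA-sequencing libraries of the series, 2 in each group. The AngII+2W mice were males of the C57BL6 strain that carried osmotic minipumps from the age of 11 weeks, received AngII at 2.8 mg/kg/day for 2 weeks and then went 2 weeks without it, whereas the CTRL mice were age-matched littermates that had received no AngII. Aortas at the end of the infusion (AngII, 2 libraries) and 3 weeks after it (AngII+3W, 2 libraries) had the same strain, sex, dose and duration, and are used here only as the values on either side. Each library pooled the tissue of 2 mice (16 mice in all), each mouse giving one piece of its aorta, so the spread between libraries is that between pools, and a single mouse cannot be followed. By the study's methods control mice were taken at each time, but the labels do not say which time a CTRL library belongs to, so the CTRL libraries could not be matched to AngII+2W in age.

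Angiotensin II is the effector peptide of the renin-angiotensin system. It raises blood pressure by constricting arteries through its type 1 receptor, and during prolonged exposure it also drives inflammation, matrix deposition and growth of the vessel wall. The aortic media is made of smooth muscle cells whose contractile proteins (smooth muscle actin, smooth muscle myosin and their partners) are transcribed under serum response factor and its coactivator myocardin. These cells can lower their contractile genes and take on a synthetic, matrix-producing state. A piece of mouse aorta also carries endothelium, adventitial fibroblasts, leukocytes, nerve fibres and the surrounding fat, so that in such bulk tissue fewer cells of a type and less RNA per cell cannot be told apart.

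The 8 libraries held between 18130441 and 21498200 counts, so that 3 counts, taken here as the floor of detection, correspond to 0.14 to 0.166 CPM (counts scaled to a common library total, the same for all libraries). Smooth muscle markers were abundant in all of them, and endothelial, fibroblast, macrophage and adipocyte markers were present. The libraries differed in RNA of other muscle. The summed level of 10 cardiac muscle genes (Myh6, Myl7, Myl4, Tnnt2 and others) was 5102 and 2275 CPM in CTRL, 1360 and 844 CPM in AngII, then 166 and 9.77 CPM in AngII+2W, and 5821 and 361 CPM in AngII+3W. All 10 of its members were detected in every library except the second AngII+2W library, where 1 was at 0. The first AngII+3W library stood apart from the other 7 by its skeletal muscle genes, whose summed level over 13 genes was 3535 CPM against 33.2 to 160 CPM elsewhere. It enters the tests of AngII+2W through the spread shared by all groups, and the counts of genes called without it are given beside the main ones.

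No gene passed the threshold in AngII+2W against CTRL. Of 17182 genes tested with edgeR's quasi-likelihood test and Benjamini-Hochberg adjustment (FDR), 0 had an FDR below 0.05, and the smallest FDR was 0.174, shared by 71 genes. At an unadjusted p below 0.05, 777 genes were higher (4.52% of those tested) and 1061 were lower (6.18%). DESeq2, run on the same genes, called 102 higher (0.594%) and 271 lower (1.58%) at its adjusted p below 0.05. Both AngII+2W libraries lay above both CTRL libraries in 21.7% of the genes and below both in 22.2%. With 2 libraries a side an exact permutation test could not have gone below p = 0.33. At the end of the infusion the same fit called 499 genes higher (2.9%) and 378 lower (2.2%), a total that ran from 0 without the second AngII library to 1504 without the first AngII+3W library. The p-values measure the spread between pooled libraries.

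The count of 0 depended on the AngII+3W libraries, which are in the fit but not in the comparison. Without the first of them 261 genes passed an FDR of 0.05, and without the second 275 did, of which 260 were the same genes, 35 higher and 225 lower. Leaving out either library leaves that group with a single one, so it no longer adds to the shared spread. In all genes called both ways the AngII+2W libraries lay outside the CTRL range, against 21.7% (above) and 22.2% (below) of all genes. DESeq2 with all libraries also called 170 of them, against 0.594% (higher) and 1.58% (lower) of all genes. They were selected for a small p in these same libraries, so neither is independent support. The first AngII+3W library was the one rich in cardiac muscle RNA. Of the lower genes called both ways, 136 were there at or above the level of the lower CTRL library. The same held for 9 of the 10 cardiac muscle genes and for 3 of 25 contractile genes. The share over all genes was not counted, and the part of cardiac muscle RNA was not tested.

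**Figure D1:**
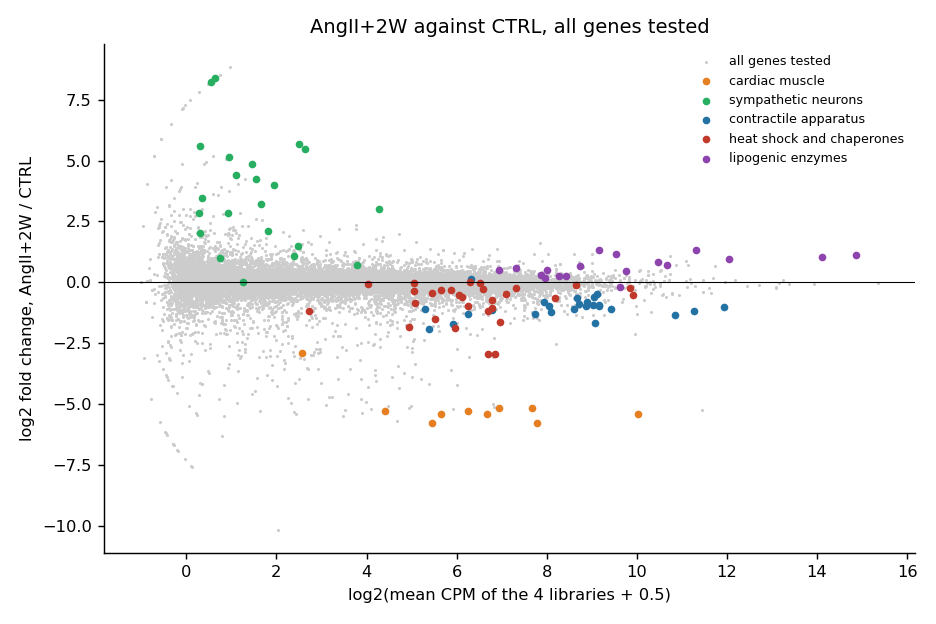
Each point is a gene, with log2 of its mean CPM over the 2 CTRL and 2 AngII+2W libraries (plus 0.5) on the x axis and its log2 fold change, AngII+2W over CTRL, on the y axis. Cardiac muscle genes lie lowest (median -5.33), contractile genes lie near -1 (median -1.03), and sympathetic neuron genes lie highest at low levels. The neuron list was put together after these values were seen.

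The genes called at the end of the infusion were followed in each library as log2(CPM + 0.5) minus the mean of the 2 CTRL libraries. The median over the 499 genes called higher was 1.19 and 1.52 in the AngII libraries, 0.43 and 0.33 in the AngII+2W libraries, and 0.15 and 0.38 in the AngII+3W libraries. For the 378 genes called lower the medians were -1.36 and -1.26, then -0.67 and -0.71, then -0.94 and -0.78. As fitted, the median log2 fold change of the higher genes went from 1.52 in AngII to 0.43 in AngII+2W, and that of the lower genes from -1.39 to -0.73. These 2 comparisons share the CTRL libraries, and the genes were chosen by their values in AngII, so the medians are given as a description. The direct test between the groups, AngII+2W against AngII, has no CTRL value in its fold change, but the CTRL libraries enter its shared spread. In it 28 genes (0.163%) had an edgeR FDR below 0.05, of which 24 were lower and 4 were higher 2 weeks after the infusion. That count was 0 without any one of the AngII or AngII+2W libraries, 1 without the first or the second CTRL library, and 262 and 261 without the first or the second AngII+3W library. DESeq2 called 685 genes with all libraries, and edgeR called 884 with only the 4 libraries compared.

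**Figure D2:**
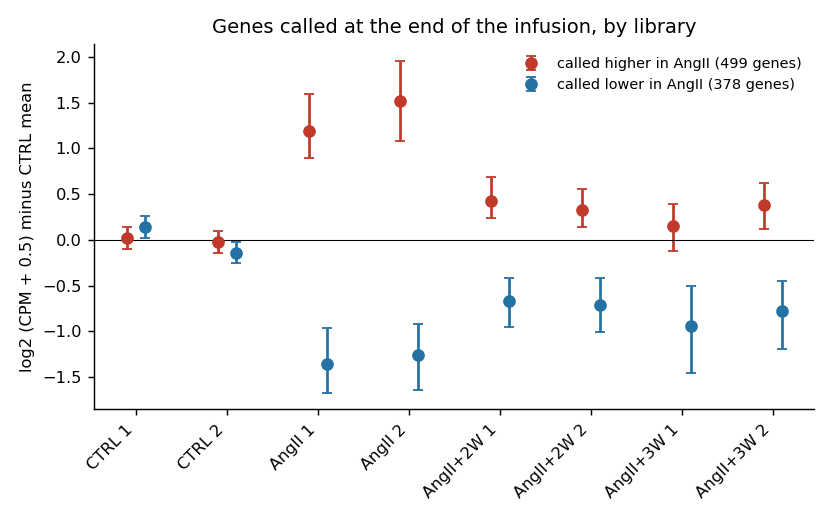
For the 499 genes called higher and the 378 called lower in AngII against CTRL, points are the median over genes of log2(CPM + 0.5) minus the CTRL mean in each library, and bars span the middle of the genes from the lower to the upper quartile. The medians of the lower genes stay at -0.67 and -0.71 in AngII+2W, and those of the higher genes at 0.43 and 0.33.

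Contractile genes were lower than in CTRL and higher than at the end of the infusion. Of 25 genes of the contractile apparatus, 21 (84%) were lower at an unadjusted p below 0.05, against 6.18% of all genes, and 0 were higher. In 24 of 25 both AngII+2W libraries lay below both CTRL libraries, against 22.2% of all genes. The median log2 fold change was -1.03, against -1.68 at the end of the infusion, and the median of AngII+2W against AngII was 0.62. In that last comparison 12 members were higher at an unadjusted p below 0.05, against 1129 of all 17182 genes. At an edgeR FDR below 0.05 there were 0. DESeq2 called 17 of the 25 in AngII+2W against CTRL, all lower, against 1.58% of all genes. Their summed level was 23730 and 18760 CPM in CTRL, 5820 and 7033 CPM in AngII, then 10740 and 9903 CPM in AngII+2W, and 6392 and 9882 CPM in AngII+3W.

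Acta2 (chr19:34241090-34255590, minus strand, GRCm38), which encodes smooth muscle actin, stood at 3057 and 2246 CPM in CTRL and at 1184 and 895 CPM in AngII+2W. The AngII+2W libraries did not overlap CTRL and lay above the AngII libraries (506 and 664 CPM). Its log2 fold change against CTRL was -1.35 ± 0.29 (SE), with an unadjusted p of 0.0019 and an edgeR FDR of 0.22. Myh11, the smooth muscle myosin heavy chain, was at 3856 and 2978 CPM in CTRL and at 1529 and 1535 CPM in AngII+2W (log2 fold change -1.16 ± 0.34). Tagln, an actin-binding protein of smooth muscle, was at 1036 and 830 CPM against 489 and 394 CPM (-1.08 ± 0.27). Both were between their CTRL and AngII levels in each AngII+2W library. Cnn1, calponin, was at 339 and 266 CPM in CTRL against 134 and 113 CPM in AngII+2W (-1.29 ± 0.29). Actg2, the enteric smooth muscle actin, had the lowest value of the group, at 78.2 and 52.7 CPM against 20.3 and 14.6 CPM (-1.91 ± 0.29, edgeR FDR 0.174). Synm, an intermediate filament protein, was the member that overlapped CTRL (69.6 and 82.2 against 76.7 and 88.6 CPM).

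Cardiac muscle RNA was also lower in AngII+2W than in CTRL, and its part in the contractile result was not tested. With the mean log2 level of the cardiac muscle genes added to the model, the median of the contractile genes was -1.49 and 18 of 25 were lower at an unadjusted p below 0.05. That level differed widely within the AngII+2W and AngII+3W pairs, and the first AngII+3W library also carried skeletal muscle RNA. In this model the skeletal muscle median went from -0.59 to 7.68. Its values, here and below, are therefore not values freed of cardiac muscle RNA. Without the first CTRL library the median was -0.85 and 12 of 25 were lower, and without the second it was -1.15 and 19 were lower.

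**Figure D3:**
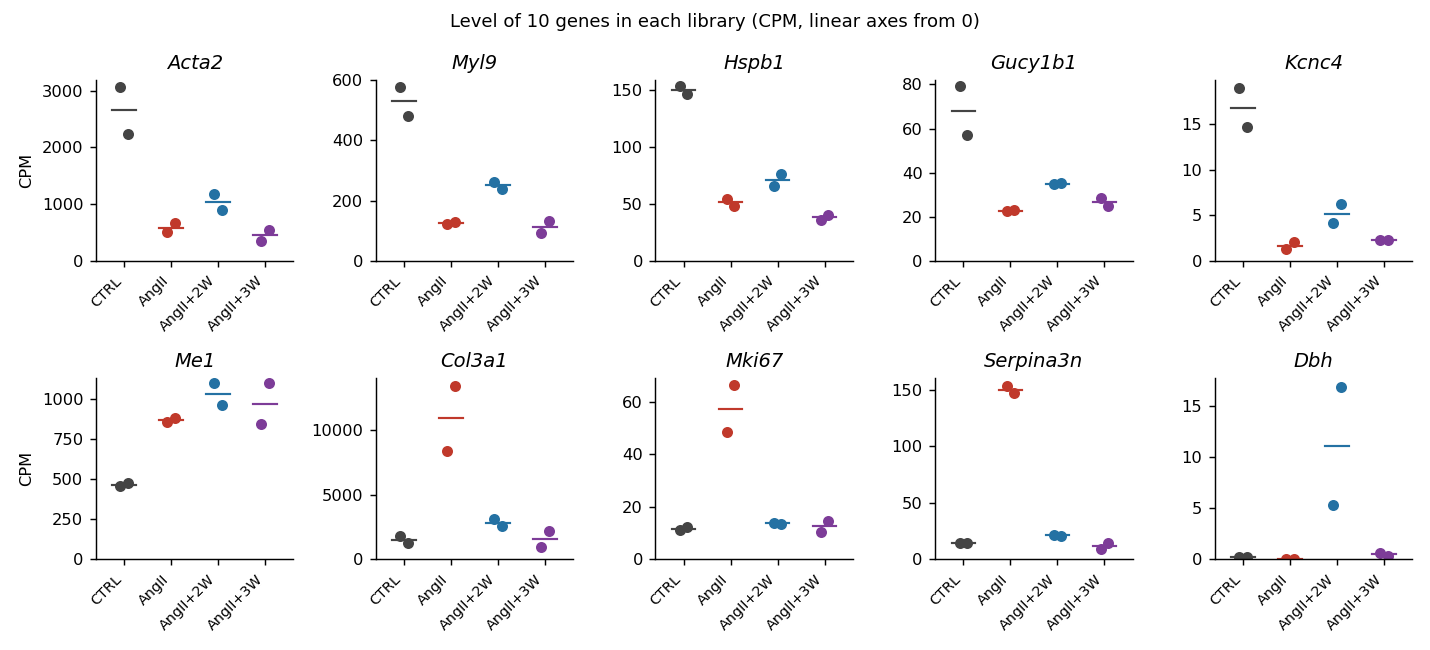
Points are the CPM of each library and lines the mean of the 2 libraries of a group, on linear axes that start at 0. In Acta2, Myl9, Hspb1, Gucy1b1 and Kcnc4 the AngII+2W libraries lie below both CTRL libraries, in Me1 above them, and in Col3a1, Mki67 and Serpina3n far below the AngII libraries, while Dbh is at 5.32 and 16.9 CPM in AngII+2W and at most 0.591 CPM in the other libraries.

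Serum response factor binds the CArG box, and heat shock factor binds the heat shock element. The promoters of these groups are therefore shown as RefSeq gives them on GRCm38.p6 (from 250 bases before to 50 bases after the start site). A CArG box was searched by its usual name, with only A or T between the outer bases, and a heat shock element as TTCNNGAA or GAANNTTC, each of which reads the same on both strands and may overlap the other. Of 22 contractile genes with a RefSeq promoter 3 (Myl9, Myl6 and Vcl) held a CArG box in this window, against 1.81% of all 27025 genes in the table. Of 23 heat shock genes 13 held a heat shock element, against 17.0% of all genes. The promoters of Myl9 (chr2:156775214-156775513, plus strand, its CArG box beginning at -161 from the start site), Hspb1 (chr5:135887669-135887968, plus strand, elements beginning at -117 and -97) and Hspa1b (chr17:34959189-34959488, minus strand, element beginning at -104) are printed with these matches in capitals, because their genes were among those that were lower in AngII+2W.
Myl9: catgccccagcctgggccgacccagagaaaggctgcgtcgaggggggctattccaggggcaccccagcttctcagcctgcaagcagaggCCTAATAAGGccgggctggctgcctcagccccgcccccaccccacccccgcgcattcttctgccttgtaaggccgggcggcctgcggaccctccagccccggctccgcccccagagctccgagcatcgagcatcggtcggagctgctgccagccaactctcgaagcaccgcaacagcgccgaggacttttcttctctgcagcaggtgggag
Hspb1: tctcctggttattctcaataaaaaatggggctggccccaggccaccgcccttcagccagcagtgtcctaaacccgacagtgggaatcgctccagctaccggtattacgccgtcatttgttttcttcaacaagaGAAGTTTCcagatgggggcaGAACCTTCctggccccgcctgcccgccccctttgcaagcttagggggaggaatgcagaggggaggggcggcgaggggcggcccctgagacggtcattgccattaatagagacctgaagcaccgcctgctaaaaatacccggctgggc
Hspa1b: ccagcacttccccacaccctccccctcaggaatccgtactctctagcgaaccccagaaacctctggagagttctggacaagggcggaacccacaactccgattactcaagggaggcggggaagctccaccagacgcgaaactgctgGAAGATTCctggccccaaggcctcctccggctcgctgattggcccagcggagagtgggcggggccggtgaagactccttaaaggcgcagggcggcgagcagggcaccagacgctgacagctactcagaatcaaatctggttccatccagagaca
A match here is a run of letters and was not tested as a binding site.

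Of 16 regulators of smooth muscle identity 4 were lower (against 6.18% of all genes) and 0 higher at an unadjusted p below 0.05 (median log2 fold change -0.35). Leaving out the first CTRL library left 2 lower (median -0.16), the second 6, and with the cardiac muscle level in the model 1 was lower and 1 higher. Myocd, the coactivator myocardin, was at 203 and 94.1 CPM in CTRL, 27.9 and 33.8 CPM in AngII and then 61.9 and 55.4 CPM in AngII+2W. All AngII+2W values lay below CTRL and above AngII, with a log2 fold change of -1.34 ± 0.34 against CTRL (edgeR FDR 0.283). Srf, serum response factor, was at 50.7 and 48.4 CPM in CTRL and at 33.7 and 25.2 CPM in AngII+2W (-0.75 ± 0.15). Its AngII libraries, at 25.5 and 27.3 CPM, overlapped those of AngII+2W.

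Genes that carry or oppose vasoconstriction were lower in part. Of 19 genes of nitric oxide and cGMP signalling 8 were lower (against 6.18% of all genes) and 1 higher at an unadjusted p below 0.05, with a median log2 fold change of -0.49. With the first CTRL library left out 2 were lower (median -0.21), and with the cardiac muscle level in the model 4 were. Gucy1b1, the beta subunit of soluble guanylyl cyclase, was at 79.3 and 57.1 CPM in CTRL, 22.6 and 22.9 CPM in AngII and then 34.8 and 35.1 CPM in AngII+2W (-0.96 ± 0.17, edgeR FDR 0.174). Its partner subunit Gucy1a1 was at 138 and 103 CPM in CTRL against 82.4 and 87.4 CPM (-0.51 ± 0.16). Npr3, the clearance receptor for natriuretic peptides, was at 83 and 84.3 CPM against 39.9 and 54.7 CPM (-0.82 ± 0.19). None of the 3 overlapped CTRL.

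Of 27 potassium and calcium channel genes 16 were lower at an unadjusted p below 0.05 (median -0.72), against 6.18% of all genes, but several of them (Ryr2, Casq2, Pln, Atp2a2) are also heart muscle genes, and with the cardiac muscle level in the model the median was -0.04 and 5 were lower. The count was 4 without the first CTRL library and 15 without the second. Kcnc4, a voltage-gated potassium channel, was at 19 and 14.6 CPM in CTRL, 1.35 and 2.04 CPM in AngII and then 4.15 and 6.23 CPM in AngII+2W (-1.70 ± 0.27, edgeR FDR 0.174). Cacna1c, the pore of the L-type calcium channel of smooth muscle and heart, was at 179 and 129 CPM against 85.7 and 90.9 CPM (-0.80 ± 0.17). Its relative Cacna1d was at 37.7 and 21.5 CPM against 9.2 and 9.02 CPM (-1.70 ± 0.27), overlapping its AngII libraries (9.07 and 11.9 CPM).

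Of 24 receptors for vasoactive ligands 5 were lower (against 6.18% of all genes) and 2 higher (against 4.52%) at an unadjusted p below 0.05. Their median was -0.09, and -0.07 without the first CTRL library. With the cardiac muscle level in the model 3 were lower. Adra1d, an alpha-1 adrenergic receptor of the aorta, was at 26.8 and 36.5 CPM in CTRL, 7.13 and 7.82 CPM in AngII and then 13.8 and 18.7 CPM in AngII+2W (-0.96 ± 0.21). Ramp1, a subunit of the receptor for calcitonin gene-related peptide, was one of the 4 genes that rose in AngII+2W against AngII (log2 fold change 1.53, edgeR FDR 0.0296). It went from 4.64 and 5.17 CPM in AngII to 15.4 and 12.9 CPM in AngII+2W, against 21.4 and 20.2 CPM in CTRL. Of 21 genes of the renin-angiotensin system, 1 was higher and 0 lower.

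Heat shock genes were lower as well. Of 29 chaperones and their partners 18 were lower (against 6.18% of all genes) and 0 higher at an unadjusted p below 0.05 (median log2 fold change -0.53, against -0.57 in AngII), and DESeq2 called 9, all lower (against 1.58% of all genes). The count was 10 without the first CTRL library and 19 without the second. Hspb1 (chr5:135887919-135889563, plus strand), a small heat shock protein that binds actin filaments, was at 153 and 146 CPM in CTRL, 54.2 and 48.4 CPM in AngII and then 66.1 and 76.1 CPM in AngII+2W. A pseudogene, Hsp25-ps1, matches 47.4% of its transcript at 99.8% identity, so a part of its reads is uncertain. Its log2 fold change was -1.07 ± 0.13, with an unadjusted p of 4.98e-05 and an edgeR FDR of 0.174. Dnajb5, a co-chaperone, was at 75.6 and 59.2 CPM in CTRL against 26 and 21.1 CPM in AngII+2W (-1.51 ± 0.18), and its AngII libraries (20.8 and 23.6 CPM) overlapped those of AngII+2W. Hspa1a and Hspa1b, the inducible Hsp70 genes, are 99.2% identical over most of their transcripts, so reads could be split between them. Hspa1b was at 343 and 66.9 CPM in CTRL against 33.6 and 19.8 CPM (-2.94 ± 0.71), so that the CTRL libraries differed more from each other than the second did from AngII+2W. Bag3, a co-chaperone of Hsp70, was at 120 and 80.1 CPM against 54.3 and 47.4 CPM (-0.97 ± 0.19). With the cardiac muscle level in the model the median of the group was -0.25 and 3 genes were lower, and the part of cardiac muscle RNA in this result was not tested.

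Immediate early genes, which respond within minutes to stimulation, were also lower. Of 24, 11 were lower (against 6.18% of all genes) and 0 higher at an unadjusted p below 0.05 (median -0.77, against -0.78 in AngII). In the absence of the first CTRL library 6 were lower, and with the cardiac muscle level in the model 2 were. Atf3 was at 74.4 and 34.2 CPM in CTRL against 14.2 and 7.41 CPM in AngII+2W (-2.32 ± 0.47), and Dusp1, a phosphatase that switches off MAP kinases, at 147 and 95.3 CPM against 62.8 and 57.8 CPM (-1.005 ± 0.21). Ccn1, a secreted matricellular protein of the early response, was at 263 and 114 CPM in CTRL, 58.1 and 79.1 CPM in AngII and then 45.5 and 32.1 CPM in AngII+2W (-2.28 ± 0.41, edgeR FDR 0.174). In these genes the first CTRL library was the highest of the 4.

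The 13 genes that the study named from its sequencing data were chosen on AngII and AngII+3W against the same CTRL libraries, so their values here are no independent evidence of direction. In AngII+2W 11 were lower (against 6.18% of all genes) and 1 higher (against 4.52%) at an unadjusted p below 0.05. Their median log2 fold change was -0.98 against -1.92 in AngII, and 6 were lower with the cardiac muscle level in the model. Myl9, the regulatory light chain of smooth muscle myosin, was at 576 and 482 CPM in CTRL, 123 and 128 CPM in AngII and then 263 and 238 CPM in AngII+2W (-1.08 ± 0.19). Lancl3, of the lanthionine synthetase-like family, was at 26.3 and 16.2 CPM against 10.4 and 7.84 CPM (-1.22 ± 0.27). Xk, a membrane transport protein, was at 33.9 and 23.1 CPM against 15.7 and 13.1 CPM (-0.98 ± 0.21). Trp53inp1, a p53-induced protein, was the member that overlapped CTRL (210 and 151 against 153 and 163 CPM), and it had been called lower in AngII (94.1 and 87.8 CPM). Ighg2b, an immunoglobulin heavy chain constant gene, was the member that was higher, at 0.0974 and 0.235 CPM in CTRL (2 and 5 counts) and 1.73 and 2.42 CPM in AngII+2W (37 and 45 counts), after 5.13 and 6.07 CPM in AngII.

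By their medians, collagen, proliferation and macrophage genes stood nearer to CTRL than in AngII, but some single matrix and myeloid genes stayed above CTRL. Of 21 collagen chains, whose median log2 fold change was 1.66 in AngII, 2 were higher and 1 lower in AngII+2W at an unadjusted p below 0.05 (median 0.23). The shares of all genes were 4.52% higher and 6.18% lower. DESeq2 called 2 of the chains higher, among them Col8a1, and 0 lower (against 0.594% and 1.58% of all genes). The median of AngII+2W against AngII was -1.43. With the cardiac muscle level in the model the collagen median against CTRL was -0.25, with 5 lower and 0 higher. Col3a1 was at 1818 and 1246 CPM in CTRL, 8392 and 13397 CPM in AngII and then 3143 and 2546 CPM in AngII+2W. Both AngII+2W libraries were above CTRL, by a log2 fold change of 0.89 ± 0.43 that did not pass (unadjusted p of 0.0721). Col8a1 and Col11a1, chains of short and fibrillar collagens of remodelling walls, fell from AngII (log2 fold changes of -2.67 and -4.10, edgeR FDR 0.0476 and 0.0436). Col8a1 was still at 49.1 and 30.2 CPM in AngII+2W against 16.2 and 15.8 CPM in CTRL (1.31 ± 0.34), and Col11a1 at 3.69 and 2.47 CPM against 1.22 and 0.706 CPM. Lum, the collagen-binding proteoglycan lumican, was likewise between its AngII and CTRL levels, at 90 and 57.2 CPM against 37.2 and 21.4 CPM in CTRL (1.33 ± 0.39).

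Tnn, tenascin N, had risen from 2 and 0 counts in CTRL to 223 and 359 counts in AngII, and was at 1 and 0 counts in AngII+2W. Fbn2, a fibrillin of growing tissue, went from 1.51 and 1.36 CPM in CTRL to 19.9 and 26.5 CPM in AngII and later to 1.96 and 1.45 CPM in AngII+2W. Both genes fell from AngII to AngII+2W (edgeR FDR 0.0136 and 0.029), and both overlapped CTRL 2 weeks after the infusion.

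Of 28 proliferation genes 0 differed from CTRL at an unadjusted p below 0.05 in either direction (0 by DESeq2), with a median of 0.15 against 1.61 in AngII. Mki67, the gene of the Ki67 antigen, went from 11 and 12.3 CPM in CTRL to 48.6 and 66.3 CPM in AngII and later to 14.1 and 13.6 CPM in AngII+2W, so that it fell by 2.05 on the log2 scale from AngII (edgeR FDR 0.029). The median of 60 replication-dependent histone genes was 0.07 against 1.18 in AngII.

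Macrophage genes (18 tested) had a median of 0.34 against 1.55 in AngII, and complement genes (19 tested) one of 0.31 against 1.27, with 3 members of each higher (16.7% and 15.8% of them, against 4.52% of all genes) and 0 lower at an unadjusted p below 0.05. Without the first CTRL library 0 macrophage genes were higher, and without the second 1 was higher and 2 were lower, while 1 complement gene was higher in either case. With the cardiac muscle level in the model the macrophage median was -0.15. Itgam, an integrin of myeloid cells, was at 14.2 and 16.7 CPM in CTRL, 33.7 and 43.1 CPM in AngII and then 22 and 35.5 CPM in AngII+2W (0.90 ± 0.25). Ccr2, the monocyte receptor for Ccl2, was at 11.6 and 9.13 CPM in CTRL, 39.2 and 42.5 CPM in AngII and then 23 and 20.6 CPM in AngII+2W (1.07 ± 0.22). Neither overlapped CTRL. Serpina3n, an acute-phase protease inhibitor, fell from 153 and 147 CPM in AngII to 22 and 21 CPM in AngII+2W (edgeR FDR 0.0136), which was still above its 14.1 and 14.2 CPM in CTRL (0.61 ± 0.20). Wfdc21, a small secreted protein of inflammation, fell from 21.2 and 13.9 CPM to 0.233 and 0.483 CPM (edgeR FDR 0.029) and overlapped CTRL.

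Other genes called most clearly in AngII followed the same course. Tmem176a, a membrane protein of myeloid cells, was at 11.4 and 12.1 CPM in CTRL, 36.2 and 39.4 CPM in AngII and then 17.1 and 15.9 CPM in AngII+2W. Chl1, a cell adhesion molecule, and Lhfpl2, a membrane protein, were at 11.6 and 16.2 CPM and at 13.8 and 13.5 CPM in AngII+2W. All 3 fell from AngII (edgeR FDR 0.035, 0.0418 and 0.0418). Adamts12, a matrix protease, was at 41.8 and 43.2 CPM in CTRL, 109 and 131 CPM in AngII and then 61.1 and 60.4 CPM in AngII+2W (0.52 ± 0.13), so its level 2 weeks after the infusion still lay outside CTRL. Endothelial genes (18 tested) had a median of 0.11, with 0 at an unadjusted p below 0.05 and 0 by DESeq2, but 5 were higher without the second CTRL library.

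**Figure D4:**
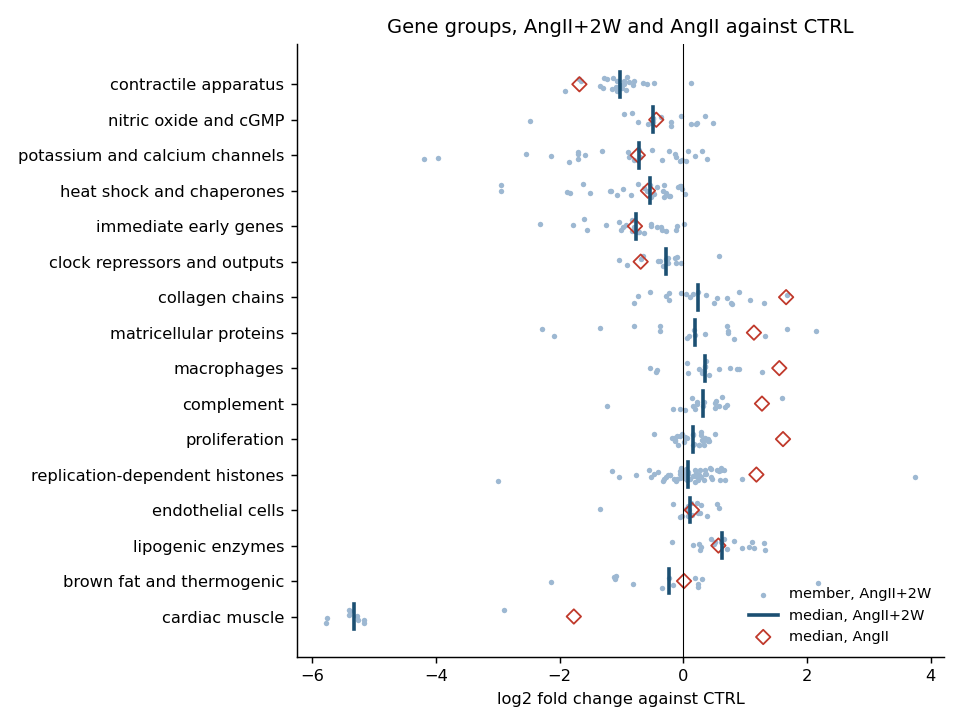
Small points are the log2 fold changes of single genes in AngII+2W against CTRL, dark bars their median for each group, and red diamonds the median in AngII against CTRL. The medians of contractile, channel, heat shock and early response genes lie below 0 at both times, collagen, macrophage, complement, proliferation and histone medians lie between 0.07 and 0.34 after the infusion and above 1 in AngII, and the lipogenic median lies above 0 at both times.

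Enzymes of fatty acid synthesis, which the fat around the aorta makes in large amounts, were higher. Of 18 lipogenic genes 10 were higher (against 4.52% of all genes) and 0 lower at an unadjusted p below 0.05. Their median was 0.63 against 0.57 in AngII. DESeq2 called 8, all higher (against 0.594% of all genes). Me1, the malic enzyme that supplies NADPH, was at 454 and 475 CPM in CTRL, 854 and 877 CPM in AngII and then 1096 and 959 CPM in AngII+2W (log2 fold change 1.15 ± 0.18, edgeR FDR 0.174). Elovl6, a fatty acid elongase, was at 324 and 333 CPM in CTRL against 857 and 771 CPM in AngII+2W (1.31 ± 0.23). Fasn, fatty acid synthase, was at 9270 and 13706 CPM against 24627 and 23177 CPM (1.06 ± 0.31), and Acly, ATP citrate lyase, at 1126 and 1801 CPM against 3854 and 3452 CPM (1.32 ± 0.34). None of these 4 overlapped CTRL. The median of the group was 0.44 without the first CTRL library, where 6 were higher and 1 lower, 0.94 without the second, where 15 were higher, and 0.49 with the cardiac muscle level in the model, where 2 genes were higher. Gm5182, a processed pseudogene 99.2% identical to Acaca, the acetyl-CoA carboxylase of this pathway, was also among the 15 clearest higher genes, and reads of the pair cannot be told apart.

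Adipocyte genes were measured beside them. Of 13 white adipocyte genes 0 were higher and 2 lower (against 6.18% of all genes) at an unadjusted p below 0.05 (median -0.16). Their summed level was 1.02 and 1.30% of all counts in CTRL and 1.02 and 1.01% in AngII+2W. Without the first CTRL library 4 were lower (median -0.34), and without the second 2 were higher and 0 lower (median 0.06), so their direction depended on the CTRL library. Of 13 brown fat genes 1 was higher (against 4.52% of all genes) and 4 lower (against 6.18%), with a median of -0.23. Without the second CTRL library the median was 0.08. Ucp1, the uncoupling protein of brown fat, was at 761 and 1117 CPM in CTRL, 1879 and 1333 CPM in AngII and then 409 and 455 CPM in AngII+2W (-1.12 ± 0.32), while Elovl3, a fatty acid elongase induced by cold, was at 3.22 and 3.95 CPM in CTRL and 16.9 and 15.5 CPM in AngII+2W (2.18 ± 0.36, edgeR FDR 0.174).

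Genes of sympathetic neurons were among the higher genes. Of the 15 higher genes with the smallest p, 5 (Syt1, Snap25, Dbh, Slc6a2 and Tubb3) belong to a list of 24 genes of noradrenergic neurons that was put together after these values were seen, so its counts are no evidence. Dbh (chr2:27165233-27183200, plus strand), the enzyme that makes noradrenaline, was counted 5 and 5 times in the CTRL libraries, 0 and 0 under AngII, 114 and 315 at AngII+2W, then 11 and 7 at AngII+3W. Its log2 fold change was 5.50 ± 0.70 against CTRL (unadjusted p of 0.000133, edgeR FDR 0.174), and it rose in AngII+2W against AngII (edgeR FDR 0.0436). Syt1, the calcium sensor of synaptic vesicles, was counted 3 and 5 times in the CTRL libraries, 2 and 0 under AngII, 109 and 283 at AngII+2W, then 5 and 7 at AngII+3W, and it too rose against AngII (edgeR FDR 0.0418).

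Th, tyrosine hydroxylase, had 3 and 7 counts in CTRL and 43 and 135 in AngII+2W. Slc6a2, the noradrenaline transporter, had 113 and 61 counts in CTRL and 408 and 891 in AngII+2W. In each of these genes the second AngII+2W library was the higher one. The 24 genes were put together after these values were seen, so their summed level is no evidence. It was 81 and 186 CPM in AngII+2W and 21 to 31.3 CPM in the other 6 libraries. Genes of Schwann cells, the glia of peripheral nerve, summed to 99.2 and 107 CPM in AngII+2W and 76.3 to 173 CPM elsewhere.

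Cardiac muscle genes had the lowest median of the 46 gene lists. All 10 were lower at an unadjusted p below 0.05, against 6.18% of all genes (median log2 fold change -5.33, against -1.77 in AngII). DESeq2 called 7, all lower, against 1.58% of all genes. Myh6, a myosin heavy chain of heart muscle, was at 2817 and 1263 CPM in CTRL, 775 and 450 CPM in AngII, then 94.4 and 1.88 CPM in AngII+2W, and 3340 and 197 CPM in AngII+3W (-5.40 ± 1.80 in AngII+2W against CTRL, edgeR FDR 0.352). The 2 AngII+3W libraries lay on either side of the CTRL libraries. Neuronal and cardiac RNA moved in opposite directions between CTRL and AngII+2W, and with 2 libraries a side the amount of attached heart muscle or nerve tissue and the treatment cannot be told apart.

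**Figure D5:**
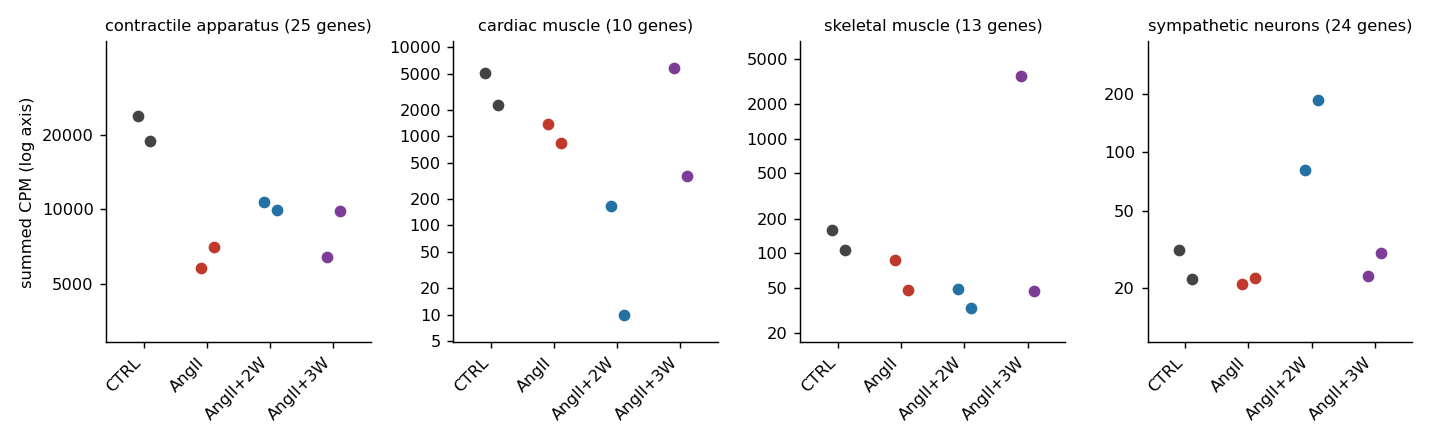
Summed CPM of the 25 contractile, 10 cardiac muscle, 13 skeletal muscle and 24 sympathetic neuron genes in each library, on log axes, with the 2 libraries of a group side by side. The AngII+2W libraries are lowest for cardiac muscle (166 and 9.77 CPM) and highest for sympathetic neurons (81 and 186 CPM). The neuron list was put together after these values were seen, so its sum is no evidence. The first AngII+3W library is far above the others for skeletal muscle (3535 CPM).

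Among the remaining genes with the smallest p, Nnat, neuronatin, a small membrane proteolipid and imprinted gene, had the smallest of all (unadjusted p of 2.57e-05, edgeR FDR 0.174). Its level was 7.31 and 9.03 CPM in CTRL, 2.32 and 3.55 CPM in AngII and then 1.31 and 0.913 CPM in AngII+2W (log2 fold change -2.87 ± 0.32). Tacc2, a centrosomal adaptor, was at 348 and 289 CPM in CTRL against 143 and 154 CPM (-1.10 ± 0.14), and Pkdcc, a secreted kinase of skeletal development, at 47.4 and 40.5 CPM against 20 and 20.5 CPM (-1.12 ± 0.15). Lgr6, a receptor for the R-spondins of Wnt signalling, was at 256 and 225 CPM in CTRL, 68.1 and 58.8 CPM in AngII and then 117 and 122 CPM in AngII+2W (-1.01 ± 0.15). Sost, the Wnt inhibitor sclerostin, is named as a list member and not for a small p (edgeR unadjusted p of 0.0053). It was at 276 and 244 CPM in CTRL, 44.5 and 45.3 CPM in AngII and then 108 and 93.3 CPM in AngII+2W (-1.37 ± 0.36). In these 5 genes no AngII+2W library overlapped CTRL. Lgr6 and Sost belong to a list of 29 Wnt modulators with a median of 0.144. Of these, 4 were higher (against 4.52% of all genes) and 3 lower (against 6.18%) at an unadjusted p below 0.05.

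Slc24a4, a potassium-dependent sodium/calcium exchanger, and Slc4a3, an anion exchanger, were at 0.607 and 0.752 CPM and at 27.4 and 28.6 CPM in AngII+2W, against 5.41 and 4.33 CPM and 71.1 and 53.1 CPM in CTRL. Dusp8, a MAP kinase phosphatase, Adam11, a disintegrin without protease activity, Vwc2, a BMP antagonist, and Carns1, carnosine synthase, had log2 fold changes from -1.70 to -1.02, and all 4 had been called lower in AngII. Nnt, the mitochondrial transhydrogenase, was at 18.2 and 20.7 CPM in CTRL, 13.1 and 13.1 CPM in AngII, then 9.43 and 9.29 CPM in AngII+2W, and 18.2 and 20 CPM in AngII+3W (-1.05 ± 0.14). A second, overlapping gene model of the same name ran at 15.2 and 1.6 CPM in CTRL against 7.33 and 5.58 CPM, and reads of the pair could be split between them. Hist1h2br, a histone H2B gene, was at 3.26 and 2.82 CPM in CTRL against 0.327 and 0.43 CPM, but its copy Hist1h2bq, 99.8% identical over most of the transcript, ran the other way (0.39 and 0 against 2.94 and 2.36 CPM), so neither value is certain.

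On the higher side, Sorcs2, a sorting receptor of neurotrophin signalling, was at 32.7 and 42 CPM in CTRL against 79.1 and 91.7 CPM in AngII+2W (1.19 ± 0.18). Rnf125, a ubiquitin ligase, was at 27 and 25 CPM against 41.6 and 45.8 CPM (0.75 ± 0.13). Fxyd6, a regulator of the sodium pump, was at 5.55 and 5.08 CPM in CTRL, 25 and 23.7 CPM in AngII and then 12.3 and 11.7 CPM in AngII+2W (1.18 ± 0.21). Ttc25, a component of cilia, was at 5.9 and 7.15 CPM against 16 and 15.1 CPM (1.25 ± 0.20). Scn9a, a sodium channel of peripheral neurons, was at 0.536 and 0.329 CPM against 2.1 and 4.24 CPM (2.85 ± 0.47). All 15 of the higher and all 15 of the lower genes named by smallest p passed DESeq2's adjusted threshold. They were chosen for a small p and for lying outside the CTRL range in these same libraries, so this is no independent support.

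Ctnna3, an alpha-catenin, Kcnab1, a potassium channel subunit, Synpo2, an actin-binding protein, and Mtus2, a microtubule-associated protein, were among the 10 genes most clearly lower in AngII (log2 fold changes from -2.49 to -2.13). In AngII+2W their log2 fold changes were -1.11, -1.14, -0.91 and -1.02, and in none did a library overlap CTRL. Synpo2, the most abundant of them, was at 846 and 656 CPM in CTRL, 166 and 171 CPM in AngII and then 396 and 402 CPM in AngII+2W.

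Of 15 repressors and outputs of the circadian clock 5 were lower (against 6.18% of all genes) and 0 higher at an unadjusted p below 0.05 (median -0.28, against -0.69 in AngII). Without the second CTRL library 2 were lower and 1 higher (median -0.20). Per2 was at 62.7 and 49.4 CPM in CTRL, 18.3 and 18.8 CPM in AngII, then 28.6 and 30.7 CPM in AngII+2W, and 60.9 and 85 CPM in AngII+3W (-0.92 ± 0.19). The labels give no hour of sacrifice. Mitochondrial mRNA, nuclear oxidative phosphorylation and cytosolic ribosomal protein genes had medians of -0.08, -0.01 and -0.11, with at most 2 members of each list at an unadjusted p below 0.05. Without the first CTRL library 11 oxidative phosphorylation genes were lower.

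Between the 2 times after the infusion, AngII+3W against AngII+2W, 0 genes had an edgeR FDR below 0.05 (smallest 0.0902), 1518 had an unadjusted p below 0.05, and DESeq2 called 221. From AngII+2W to AngII+3W the median change of contractile genes was -0.30 on the log2 scale. Acta2 was at 350 and 550 CPM and Myl9 at 91.3 and 131 CPM in AngII+3W, below both AngII+2W libraries in each case. Myh11, at 766 and 1580 CPM, Flna, the actin crosslinker filamin A, at 1377 and 2808 CPM, and Smtn, smoothelin, at 281 and 625 CPM, had their second AngII+3W library above both AngII+2W libraries. The contractile sum of that library, 9882 CPM, was close to the 9903 CPM of the second AngII+2W library. Without the second AngII+3W library, which leaves the library rich in skeletal and cardiac muscle RNA alone in its group, 432 genes passed.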

How the data were processed

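RNA from pieces of aorta, pooled from 2 mice a library, was depleted of ribosomal RNA and sequenced paired-end on a single lane. The authors quantified reads with Salmon against mouse cDNA of the GRCm38.p6 build, summarized them per gene, and deposited estimated counts, all whole numbers in the table used here, with no normalization. Salmon splits reads between near-identical copies. The strand setting was not given in the sources used here. Comparisons were computed with edgeR 4.0.16 in R 4.3.3 (filterByExpr, TMM factors, glmQLFit and glmQLFTest in the older form, 1 coefficient a group, all 8 libraries, 4 residual degrees of freedom, two-sided, Benjamini-Hochberg over 17182 genes; common biological coefficient of variation 0.202). SE is the log2 fold change over the square root of F. CPM use TMM-scaled totals of genes tested. Alternatives were DESeq2 1.42.0 and limma-voom 3.58.1, other scalings and filters, a replicate block, each library left out, and, added after seeing the data, a cardiac muscle covariate. The script was tested on simulated data. Replicates are pools of mice, and libraries of a group differed well beyond counting noise (chi-square per degree of freedom from 13 to 91), so none was a duplicate. Named genes are the 15 higher and 15 lower with the smallest p in AngII+2W against CTRL (both libraries outside the CTRL range, mean CPM at least 1), the 10 higher and 10 lower clearest in AngII, members of 46 gene lists and the study's 13 genes. Members and lists were chosen with earlier results of these data known. Positions are from GENCODE vM21 and promoters from RefSeq. A few genes that the rule names are not reported here.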

Additional observations from a re-analysis of the deposited data

Results flagged for a closer look

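The genes named here differed between the end of the infusion and 2 weeks after it, as tested directly in AngII+2W against AngII (edgeR's quasi-likelihood test, FDR below 0.05). Groups of 2 libraries are too small for a test of single outlying libraries. Lower 2 weeks after the infusion were Serpina3n (log2 fold change -2.8, FDR 0.0136), Tnn (-8.86, FDR 0.0136), Tmem176a (-1.2, FDR 0.035), Wfdc21 (-5.61, FDR 0.029), Chl1 (-2, FDR 0.0418), Lhfpl2 (-1.61, FDR 0.0418), Mki67 (-2.05, FDR 0.029), Fbn2 (-3.76, FDR 0.029), Col8a1 (-2.67, FDR 0.0476) and Col11a1 (-4.1, FDR 0.0436). Hist1h2br was also lower (-3.31, FDR 0.0476), but reads may be split with its near-identical copy Hist1h2bq. Ramp1 was higher (1.53, FDR 0.0296), and so were the neuronal genes Syt1 (7.47, FDR 0.0418) and Dbh (10.8, FDR 0.0436). The fitted value of Dbh is set by the prior count, since both AngII libraries held 0 counts of it, and is no measure of a fold.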

How the results depend on the processing

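The count of genes past an FDR of 0.05 depended on the setting, and the cause was not tested. For AngII+2W against CTRL (0 by edgeR's quasi-likelihood test, 1838 at an unadjusted p below 0.05) it was 5 with no filter beyond 1 count, 373 by DESeq2, 420 by the likelihood ratio test, 0 by limma-voom and 0 to 275 with 1 library left out (261 without the first and 275 without the second AngII+3W library). For AngII against CTRL (877) it was 1588 by DESeq2, 1711 by the likelihood ratio test, 561 with the cardiac muscle covariate, which was chosen after seeing the data, and 0 to 1504 with 1 library left out: 29 and 351 without the first or second CTRL library, 229 and 0 without an AngII library, 280 and 282 without an AngII+2W library, and 1504 and 1492 without an AngII+3W library. For AngII+2W against AngII (28) it was 18 with library totals alone, 242 with no filter, 685 by DESeq2, 766 by the likelihood ratio test, 15 by limma-voom, 884 with only the 4 libraries compared, 0 with the covariate and 0 to 262 with 1 library left out. For AngII+3W against AngII+2W (0) it was 11 with no filter, 221 by DESeq2, 273 by the likelihood ratio test and 0 to 432 with 1 library left out. Where 1 library of a group was left out, the other is assumed to vary like the other groups.

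With the replicate block the counts were 0, 870, 26 and 2, in the same order. Replicate numbers belong to different mice and the deviations of same-numbered libraries correlated by -0.0303 to 0.425, so the numbers were not taken as pairs.

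Of 99 named genes 9 changed sign in AngII+2W against CTRL. The cardiac muscle covariate also took the median of the skeletal muscle genes from -0.591 to 7.68, so its values are not freed of cardiac muscle RNA. With the cardiac muscle covariate the log2 fold change was 0.542 for Tnn, -0.24 for Mki67, -0.479 for Fbn2, 0.106 for Trp53inp1, 1.31 for Des, 0.0806 for Cryab, -0.0252 for Col1a1, -0.00326 for Itgam and 0.814 for Myh6, and without the first CTRL library it was 2.31 for Tnn and 0.078 for Trp53inp1, so that over all settings leaving out 1 library Tnn ran from -3.1 to 2.31 and Trp53inp1 from -0.412 to 0.078. Over all settings without the covariate the median log2 fold change of all genes was at most 0.0161 in absolute value. With 2 pools a group and 4 residual degrees of freedom, a gene that misses the threshold is not shown to be unchanged.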

Other observations

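The median log2 value of 13 chondrogenic and calcification genes was 0.367 for AngII+2W and 0.677 for AngII, each against CTRL, with 2 members higher and 0 lower at an unadjusted p below 0.05 after the infusion, and 0 higher without the first CTRL library. Of 29 genes of TGF-beta and BMP signalling 5 were lower and 1 higher (median -0.241), and 1 was lower without the first CTRL library. Of 38 interferon-stimulated genes 4 were higher and 2 lower (median 0.206), against 2 and 3 without the first CTRL library. Of all genes tested, 4.52% were higher and 6.18% lower at the same threshold as in these lists. T cell, B cell, NADPH oxidase, NF-kappa B and p53 target lists had medians between -0.0538 and 0.152. Cytosolic ribosomal protein genes lay below both CTRL libraries in 42 of 82 cases, against 22.2% of all genes. Their median was -0.107, with 1 member at an unadjusted p below 0.05.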
